A study of Homo sapiens with 24 samples.

Results

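The balance of H3K27ac over H3K4me1 was measured in unperturbed ventricular-like cardiomyocytes at day 15 of differentiation from H9, an embryonic stem cell line of human origin. The comparison used the 6 libraries of these 2 marks from control cells, 3 for H3K27ac and 3 for H3K4me1, of the 24 libraries in the series. They were chosen by the mark and condition in their labels, not by their values. The other libraries profiled H3K4me3 and H3K9me3 in the same control cells, and all 4 marks in cells with a knockdown of ZNF436, a zinc finger protein gene. All were made by CUT&Tag, in which an antibody brings a transposase to marked nucleosomes so that the DNA there is cut and tagged. The labels do not state how the knockdown was made or whether control cells carried a control vector.

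H3K4me1 and H3K27ac are both placed on nucleosomes beside regulatory elements. H3K4me1 is written by the KMT2C and KMT2D methyltransferases at enhancers, and an enhancer that carries it without acetylation is usually called primed, or poised where repressive marks are also present. H3K27ac is written by the acetyltransferases EP300 and CREBBP and marks enhancers and promoters in use. At active promoters, further methylation to H3K4me3 leaves little H3K4me1 at the start site. In heart muscle cells, acetylated enhancers are known to lie near genes of contraction and of the cardiac transcription factor network.

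The deposited counts cover 153244 regions of the hg19 genome with a median width of 708 bp. Total counts were 3188173, 3043827 and 3074226 in the H3K27ac libraries, and 4635493, 4383404 and 3995760 in the H3K4me1 libraries. Levels are given as CPM (counts scaled to the library total) and, where regions of different widths are compared, as CPM per kb. Across tested regions, levels of 2 H3K27ac libraries had Spearman correlations of 0.64 to 0.73, those of 2 H3K4me1 libraries 0.67 to 0.79, and those of 1 library of each mark 0.35 to 0.53. These are correlations across regions, which are not independent replicates. No gene annotation of hg19 was used, so regions are given by position, and the cell type in the labels was not checked against marker genes.

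Of 77615 regions with enough counts for a test, 15837 (20.4%) had a different level of the 2 marks in edgeR's quasi-likelihood test at an adjusted p under 0.05. H3K27ac was higher in 7347 of them (9.47%) and lower in 8490 (10.9%). The ratio was large at both ends, since 7133 of the higher (9.19% of tested regions) and 8243 of the lower calls (10.6%) had a log2 ratio of at least 1 in size. The 3 H3K27ac libraries all lay above the 3 H3K4me1 libraries in 7229 of the higher calls, against a background of 11457 tested regions (14.8%), and all lay below them in 8423 of the lower calls, against 21260 (27.4%). The log2 ratio had a median of -0.45 over all tested regions, and 5% of regions lay below -2.30 and 5% above 2.07. Different antibodies made the libraries, so the position of 0 is set by the scaling and only the order of regions and their distance from the median are read below.

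How many regions passed in each direction depended on the scaling and on single libraries. With TMM scaling, which moved the median of all regions by 0.32, 9493 regions were higher and 4243 lower, so that 69.1% of calls had more H3K27ac, against 46.4% with library totals. All 7347 higher calls were also called with TMM scaling, and all 4243 lower calls with TMM scaling were called with library totals. With the replicate number as a block, 8831 were higher and 13686 lower. Leaving out the first H3K4me1 library left 4506 higher and 2266 lower calls, and lower calls numbered 4803 without the second H3K4me1 library, 3547 without the third and 5451 without the first H3K27ac library. Nothing in the labels says that replicates were separate cultures, and the p-values reflect only how far these libraries differ among themselves, possibly for technical reasons.

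A larger share of H3K27ac than of H3K4me1 lay at regions with H3K4me3, the mark of active promoters. The 30649 regions in the top 20% by H3K4me3 per kb in control cells, here called promoter-like, took 56.0%, 50.2% and 52.3% of the counts of the H3K27ac libraries, against 36.5%, 37.0% and 34.8% of the H3K4me1 libraries. The name stands for this cut and not for known promoters, and the class takes in regions with little H3K4me3. The means were 52.8 ± 2.92% and 36.1 ± 1.12% (SD, n = 3 each), and every H3K27ac library lay above every H3K4me1 library. An exact two-sided permutation test gave p = 0.1, the smallest that 3 against 3 libraries can give. The 92608 regions with neither H3K4me3 nor H3K9me3 in the top 20% held 44.0 ± 2.18% of H3K27ac counts and 62.6 ± 0.934% of H3K4me1 counts (p = 0.1, same exact test), again without overlap between the marks. Promoter-like regions covered 59.0 Mb and these others 77.5 Mb, beside 38.2 Mb of regions high in H3K9me3 only. The shares compare the 2 marks and are not levels per kb. The 100 regions with the most counts, of which 90 were promoter-like, held 3.70 ± 0.661% of H3K27ac counts and 2.42 ± 0.244% of H3K4me1 counts.

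**Figure D1:**
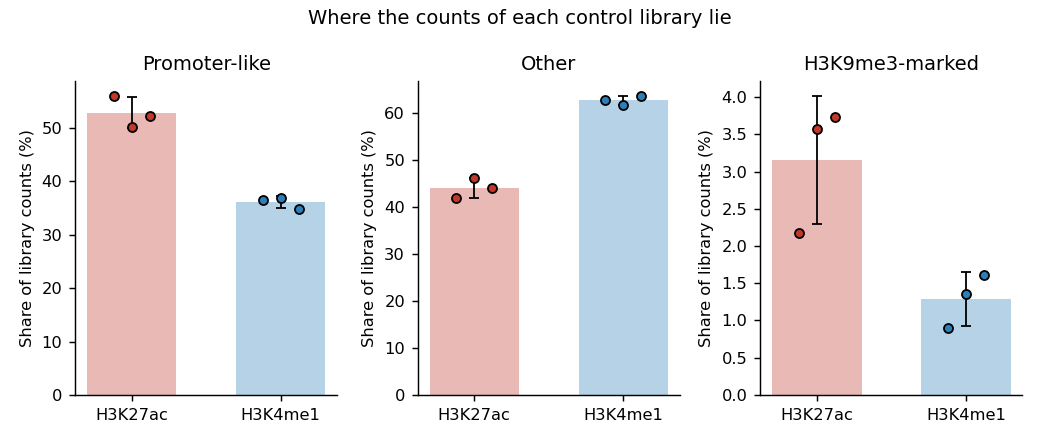
Share of each control library's counts (percent, linear axes from 0 that differ between panels) in promoter-like, other and H3K9me3-marked regions. Points are the 3 libraries of a mark, bars their mean and error bars 1 SD. In each panel the points of the 2 marks do not overlap, with H3K27ac above H3K4me1 in promoter-like and H3K9me3-marked regions and below it in the others.

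Most regions with more H3K27ac were promoter-like, and most with more H3K4me1 were not. Of 25469 promoter-like regions tested, 6493 (25.5%) had more H3K27ac and 1929 (7.57%) more H3K4me1 (edgeR, adjusted p under 0.05), beside 9.47% and 10.9% of all tested regions. Of the 52146 tested regions outside this class, 854 (1.64%) had more H3K27ac and 6561 (12.6%) more H3K4me1. Promoter-like regions thus made up 88.4% of the calls with more H3K27ac and 22.7% of those with more H3K4me1. The median log2 ratio was 0.33 in promoter-like regions and -0.70 outside them. The gap between these medians was 1.03 with library totals, 1.03 with TMM scaling and 1.07 with the replicate block. The promoter-like median itself was 1.09 with a class of the top 10% and 0.16 with a class by CPM not per kb, so its size depends on how the class is set. Regions are not replicates, and these medians were not tested.

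**Figure D2:**
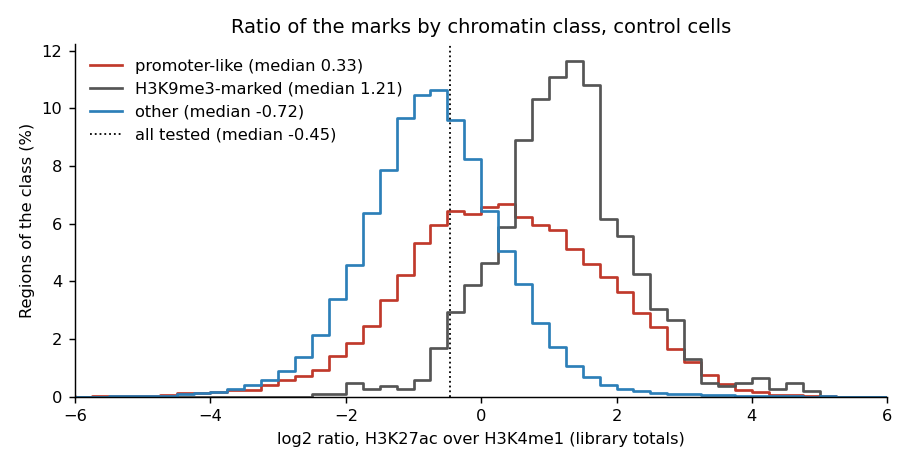
Distribution of the log2 ratio of H3K27ac over H3K4me1 in control cells, with library totals, as the percent of tested regions of each chromatin class. The promoter-like curve is broad with its median at 0.33, the H3K9me3-marked curve has its median at 1.21, and the curve of other regions has its median at -0.72. The H3K9me3-marked curve holds only the 1070 of 29987 such regions that passed the count filter. That filter may in part set its position. The dotted line is the median of all tested regions, -0.45.

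The split followed how much H3K4me3 a region had. When tested regions were ranked by H3K4me3 per kb and divided into deciles, the top decile (above 20.1 CPM per kb) had a median log2 ratio of 1.64. In that decile 4999 regions, 64.4%, had more H3K27ac and 22, 0.283%, more H3K4me1 (edgeR, adjusted p under 0.05). The ninth decile was mixed, with a median of 0.10, 14.8% of regions with more H3K27ac and 10.1% with more H3K4me1. From the lowest to the eighth decile, medians lay between -0.84 and -0.39, and regions with more H3K4me1 made up 10.6% to 13.7%. The eighth decile, at 0.700 to 2.47 CPM per kb of H3K4me3, lies wholly within the promoter-like class. Its median was nevertheless -0.39, with 3.57% of regions with more H3K27ac and 11.6% with more H3K4me1. The promoter-like class is thus mixed, and results set against it carry that mixture. Median levels in the top decile were 8.63 CPM per kb for H3K27ac and 2.70 CPM per kb for H3K4me1. In the eighth decile they were 7.82 and 9.69 CPM per kb, so that per kb H3K4me1 differed most between these deciles. Median widths were 2752.5 bp in the top and 942 bp in the eighth decile. In CPM, not per kb, median H3K27ac was 23.8 in the top and 6.53 in the eighth decile. Median H3K4me1 was 7.39 CPM in the top and 8.52 CPM in the eighth decile, so that by CPM H3K27ac differed most.

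**Figure D3:**
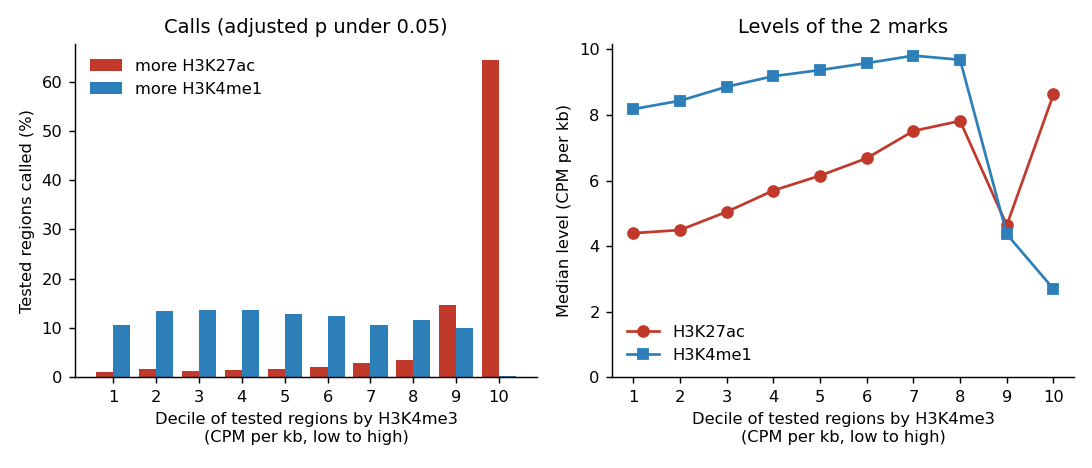
Deciles of tested regions by H3K4me3 in control cells (CPM per kb, low to high). The left plot gives the percent of regions called with more H3K27ac or more H3K4me1, and the right plot the median level of both marks in CPM per kb. The top decile has 64.4% of its regions called with more H3K27ac, and its median H3K4me1 of 2.70 CPM per kb is the lowest of all deciles.

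Promoter-like regions at the opposite ends of the ratio differed in their H3K4me3 as well. Those with more H3K27ac had a median width of 2737 bp, 28.5 CPM per kb of H3K4me3, 30.2 CPM of H3K27ac and 6.95 CPM of H3K4me1. Those with more H3K4me1 had a median width of 1827 bp, 1.81 CPM per kb of H3K4me3, 3.65 CPM of H3K27ac and 16.7 CPM of H3K4me1. The H3K4me3 libraries were not used for the ratio. The ratio also differed by width, though not in one direction. Median log2 ratios were 0.56 in the widest decile of all tested regions and 0.40 in the next, between -0.76 and -0.23 in the 7 deciles below, and -0.17 in the narrowest. The part of width in the result was not tested.

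Named regions at the ends of the ratio were called regions with a mean of at least 10 CPM in the higher mark and no overlap between the 2 marks' libraries, which 6666 regions with more H3K27ac and 6166 with more H3K4me1 met. The largest ratio toward H3K27ac was at chr1:1676888-1678305, a promoter-like region of 1418 bp. Its H3K27ac was 37.3, 26.3 and 52.0 CPM, against 0.431, 1.37 and 0 CPM of H3K4me1, a log2 ratio of 5.90 (SE 0.63, adjusted p = 2.84e-05, edgeR). A neighbour on the same chromosome, chr1:1623528-1625120, had 68.7, 71.9 and 65.7 CPM of H3K27ac, against 1.08, 2.28 and 0 CPM of H3K4me1 (log2 ratio 5.87, SE 0.54, adjusted p = 1.14e-05, edgeR). Acetylation was thus high in every library of both regions while 1 of the 3 H3K4me1 libraries had no count there.

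At chr15:41407189-41409589, H3K27ac was 89.4, 82.8 and 77.7 CPM, against 3.67, 1.83 and 2.0 CPM of H3K4me1 (log2 ratio 5.03, SE 0.35, adjusted p = 5.95e-06, edgeR). H3K4me3 at that region averaged 50.4 CPM per kb, the highest of the 12 with the largest ratios toward H3K27ac. At chr3:9833067-9836156, H3K27ac was 153, 86.1 and 132 CPM, against 4.31, 5.02 and 4.0 CPM of H3K4me1 (log2 ratio 4.79, SE 0.32, adjusted p = 4.24e-06, edgeR), which was also among the smallest p of all regions. Of these 12 regions 11 were promoter-like, beside 88.4% of all calls with more H3K27ac. The other, chr22:36715467-36716315, had 7.53, 8.21 and 15.0 CPM of H3K27ac, against 0, 0.684 and 0.250 CPM of H3K4me1. The log2 ratios of all 12 lay between 4.72 and 5.90. In 4 of them H3K9me3 was in the top decile of tested regions, at 10.8 CPM per kb in chr12:133653871-133658428, 11 in chr5:150283814-150286867, 3.99 in chr16:75181985-75183590 and 2.48 in chrX:40943283-40947734. The median over all tested regions was 0.580 CPM per kb.

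The 6 regions with the smallest p toward H3K27ac included chr3:9833067-9836156 and chr15:41407189-41409589, given above, which were 3090 and 2401 bp wide. The others were broader than these, and 3 of them follow. The region chr6:32934519-32943034, 8516 bp wide, had 267, 207 and 234 CPM of H3K27ac, against 16.6, 19.8 and 18.8 CPM of H3K4me1 (log2 ratio 3.68, SE 0.23, adjusted p = 4.24e-06, edgeR). The region chr11:129870313-129874204 had 169, 126 and 159 CPM of H3K27ac, against 9.92, 11.2 and 8.76 CPM of H3K4me1 (log2 ratio 3.92, SE 0.26). The widest, chr7:5456233-5471571 with 15339 bp, had 463, 326 and 345 CPM of H3K27ac, against 47.2, 53.2 and 45.5 CPM of H3K4me1 (log2 ratio 2.96, SE 0.21). In all 3 regions the lowest acetylation library was several times above the highest H3K4me1 library, and H3K4me3 lay between 29.9 and 43.8 CPM per kb.

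At the other end, regions had H3K4me1 with almost no acetylation. In chr13:84453083-84454165 and chr5:87970045-87971783 no H3K27ac library had a count. H3K4me1 was 11.2, 8.44 and 19.8 CPM in chr13:84453083-84454165 and 14.0, 10.7 and 14.5 CPM in chr5:87970045-87971783. With a floor of 3 counts over the 3 H3K27ac libraries, acetylation was at least 40.0-fold lower than H3K4me1 in the chromosome 13 region and at least 40.5-fold lower in the chromosome 5 region (adjusted p = 0.000262 and 0.000172, edgeR). Both were promoter-like by the 20% rule, with 1.13 and 3.95 CPM per kb of H3K4me3, below the class median of 7.84 CPM per kb over tested promoter-like regions.

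At chr11:27643339-27644813, which was not promoter-like and had no H3K4me3 count in control cells, H3K27ac was 0, 0.657 and 0 CPM, against 23.3, 7.76 and 26.3 CPM of H3K4me1. These are 2 counts of H3K27ac against 247 of H3K4me1, a ratio of 0.0113 after scaling to library totals (95% exact interval 0.00136 to 0.0413, counting error only; adjusted p = 0.000261, edgeR). The region chrX:136509862-136511411 had 2 counts of H3K27ac against 233 of H3K4me1, a ratio of 0.0120 (interval 0.00145 to 0.0439). In all, 7 of the 12 regions with the largest ratios toward H3K4me1 were not promoter-like, beside 77.3% of all calls with more H3K4me1. The farthest of the 7 from a promoter-like region, chr1:73766017-73767182, lay 896 kb away and had 0.314, 0.657 and 0.651 CPM of H3K27ac, against 19.6, 12.8 and 21.0 CPM of H3K4me1 (log2 ratio -4.96, SE 0.63, adjusted p = 9.58e-05, edgeR).

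**Figure D4:**
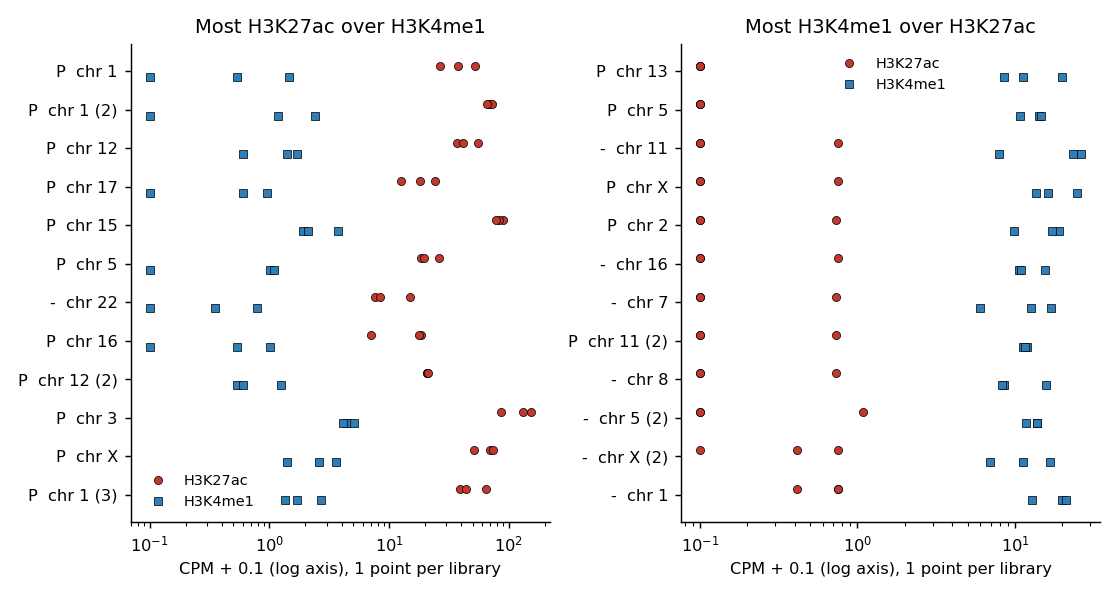
CPM of every control library (log axis, with 0.1 added so that 0 can be drawn) in the 12 regions with the largest ratio toward H3K27ac, left, and the 12 toward H3K4me1, right, ordered from the largest ratio at the top. Each row is named by its chromosome, P marks a promoter-like region and a dash one that is not. Circles are H3K27ac and squares H3K4me1, and the 2 do not overlap in any row, as the choice of regions required.

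The smallest p toward H3K4me1 fell on regions with strong H3K4me1 in every library. The smallest was at chr1:92947517-92952623, promoter-like with 3.43 CPM per kb of H3K4me3, where H3K27ac was 3.76, 6.57 and 2.60 CPM, against 61.1, 62.5 and 55.6 CPM of H3K4me1 (log2 ratio -3.78, SE 0.37, adjusted p = 1.49e-05, edgeR). The region chrX:39940410-39950172, 9763 bp wide, had 8.16, 18.4 and 13.7 CPM of H3K27ac, against 136, 110 and 106 CPM of H3K4me1 (log2 ratio -3.13, SE 0.31). Of these 6 regions, 4 were not promoter-like, beside 77.3% of all calls with more H3K4me1. These 4 lay between 13.8 and 23.5 kb from a promoter-like region. Among them, chr6:15264765-15269209 had 7.53, 9.20 and 13.0 CPM of H3K27ac, against 79.2, 63.4 and 75.6 CPM of H3K4me1 (log2 ratio -2.87, SE 0.30). The region chr11:131759031-131760675 was the lowest in acetylation, with 1.25, 0.657 and 0.651 CPM of H3K27ac, against 23.3, 25.3 and 27 CPM of H3K4me1 (log2 ratio -4.82, SE 0.52).

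Outside promoter-like regions, those with more H3K27ac were the rarer kind and had fewer counts. How much rarer depended on the scaling, with 854 against 6561 by library totals and 1533 against 3196 by TMM scaling. The 854 had a median of 12.6 CPM of H3K27ac and 2.49 CPM of H3K4me1, and the 6561 with more H3K4me1 a median of 3.86 CPM of H3K27ac and 15.5 CPM of H3K4me1. Median widths were alike, at 1318 and 1370 bp. After chr22:36715467-36716315, the largest ratio was at chr15:89861736-89863273, where H3K27ac was 15.1, 19.1 and 4.23 CPM, against 0.431, 0.456 and 0.501 CPM of H3K4me1 (log2 ratio 4.69, SE 0.77, adjusted p = 0.000777, edgeR). The last of these H3K27ac libraries was well below the others, and the call was lost with limma-voom (adjusted p = 0.0655). The region chr22:20095303-20096287 had 11.9, 20.4 and 15.3 CPM of H3K27ac, against 1.73, 0.913 and 0.250 CPM of H3K4me1 (log2 ratio 3.97, SE 0.65). Of the 6 such regions named, 5 lay within 6.03 kb of a promoter-like region, a limit taken from these regions themselves. Over all 854 the median distance was 16.4 kb. Within 5 kb lay 21.9% of the 854, beside 15.7% of all tested regions outside the class.

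Some regions of one direction lay in runs, though most did not. Joining regions outside the promoter-like class and chromosome Y that were called in the same direction with gaps of at most 12.5 kb, a rule chosen after the values were seen, gave 10 runs of at least 3 regions with more H3K27ac, which held 37 of 852 such regions, and 257 with more H3K4me1, which held 946 of 6561. The largest run toward H3K4me1 held 9 regions on chr1:230240082-230292171, where 9 of 11 tested regions were called and none was promoter-like. Their summed H3K27ac was 93.8, 135 and 64.7 CPM, against 341, 326 and 312 CPM of H3K4me1. Toward H3K27ac, a run of 7 regions on chr21:46895468-46934639 had 180, 153 and 139 CPM of H3K27ac, against 34.9, 26.0 and 33.0 CPM of H3K4me1. A run of 6 on chr22:36694479-36733945, which holds chr22:36715467-36716315, had 429, 387 and 379 CPM of H3K27ac, against 186, 216 and 191 CPM of H3K4me1. The libraries of the 2 marks did not overlap in any of these 3 runs, which follows from how their regions were chosen.

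Regions with the most counts and a ratio near the median of all regions carried both marks over long stretches. That follows in part from the rule, which ranks by CPM of both marks and not per kb. The 6 named by this rule were 15603 to 20245 bp wide and all promoter-like, with log2 ratios of -0.76 to -0.24. In 4 of them H3K4me3 was low for that class, at 0.680 to 1.72 CPM per kb beside the class median of 7.84. At chr1:27880612-27900140, H3K27ac was 413, 361 and 354 CPM, against 469, 483 and 375 CPM of H3K4me1 (log2 ratio -0.24, SE 0.17, adjusted p = 0.354, edgeR). At chr14:100028329-100048573, H3K27ac was 324, 266 and 304 CPM, against 534, 457 and 473 CPM of H3K4me1 (log2 ratio -0.71, SE 0.17, adjusted p = 0.00935, edgeR). The call on chromosome 14 was lost with TMM scaling (log2 ratio -0.39, adjusted p = 0.141, edgeR) and without the first H3K4me1 library (-0.64, adjusted p = 0.0834, edgeR). The marks overlapped between libraries in the chromosome 1 region and not in the chromosome 14 region. At chr8:145011497-145029024, the richest of the 6 in H3K4me3 with 13.7 CPM per kb, H3K27ac was 236, 237 and 223 CPM, against 316, 347 and 270 CPM of H3K4me1 (log2 ratio -0.42, SE 0.18, adjusted p = 0.108, edgeR).

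The ratio changed little with distance from a promoter-like region. Outside that class, the median log2 ratio was -0.68 within 1 kb, -0.61 between 5 and 10 kb, and -0.85 beyond 250 kb, so its fall with distance was small beside the step at the promoter-like class itself. Regions with more H3K27ac lay a median of 16.4 kb from a promoter-like region, those with more H3K4me1 32.4 kb, and all tested regions outside the class 30.4 kb. The share within 5 kb was 21.9% for more H3K27ac, 16.0% for more H3K4me1 and 15.7% overall.

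**Figure D5:**
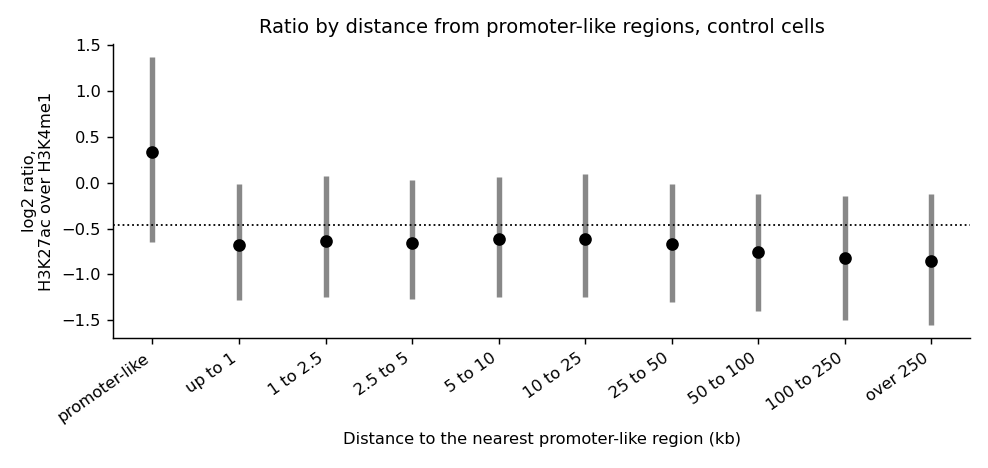
Log2 ratio of H3K27ac over H3K4me1 in control cells by distance to the nearest promoter-like region (kb). Points are medians over tested regions, bars run from the lower to the upper quartile, and the dotted line is the median of all tested regions, -0.45. The promoter-like class stands at 0.33, and every distance class outside it lies between -0.85 and -0.61.

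The ratio of neighbouring regions shifted with the call of the promoter-like region next to them, though not always to the same side. Within 10 kb of a promoter-like region with more H3K27ac, the 1782 tested regions outside the class had a median log2 ratio of -0.21. The 9504 beside one called in neither direction had -0.65, and the 1091 beside one with more H3K4me1 had -1.13. More H3K4me1 was called in 6.0% of the neighbours of the first kind and in 24.5% of those of the last, and more H3K27ac in 5.33% and 0.550% of them. Neighbours share their libraries with the promoter-like region, so these values are a description.

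As an outline of active and primed elements, regions outside the promoter-like class were grouped by their levels in the knockdown libraries, which the control ratio did not use. A mark was taken as present where its mean level per kb was in the top 20%. A mark alone therefore means that the other was below this cut, not that it was absent. Of 122595 regions outside the promoter-like class, 8374 had both marks, 10510 H3K27ac alone and 16199 H3K4me1 alone in knockdown cells. In control cells, the tested regions with both marks had a median log2 ratio of -0.27, with 70 of 7537 (0.929%) called with more H3K27ac and 436 (5.78%) with more H3K4me1 (edgeR, adjusted p under 0.05). Both shares were below those of all tested regions outside the promoter-like class, 1.64% and 12.6%. Those with H3K4me1 alone had a median of -1.10 and 3362 of 13442 (25%) had more H3K4me1, while 2 had more H3K27ac. Those with H3K27ac alone had a median of 0.42 and 428 of 5320 (8.05%) had more H3K27ac, while 23 had more H3K4me1. Those with neither mark had a median of -0.80, and of 25847 regions 354 (1.37%) had more H3K27ac and 2740 (10.6%) more H3K4me1. With the same cut on control libraries, 6977 regions had both marks, 16992 H3K4me1 alone and 11938 H3K27ac alone, and 47.5%, 42.1% and 30.01% of them fell in the same class in knockdown cells. The H3K27ac-alone class was the narrowest, with a median width of 424 bp, beside 975 bp for H3K4me1 alone. By this control cut, regions with H3K4me1 alone still had a median of 4.79 CPM per kb of H3K27ac, beside 1.34 with neither mark. Those with H3K27ac alone had 5.41 CPM per kb of H3K4me1, beside 0.697 with neither mark. The classes are thus cuts along graded levels, and H3K4me1 alone does not mean without acetylation.

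Regions with H3K9me3, the mark of silenced heterochromatin, held few counts of both marks but relatively more H3K27ac. The 29987 regions in the top 20% by H3K9me3 per kb and not promoter-like took 2.17%, 3.57% and 3.73% of H3K27ac counts, against 0.892%, 1.36% and 1.62% of H3K4me1 counts. Means were 3.16 ± 0.859% and 1.29 ± 0.366% (SD, n = 3 each, exact permutation p = 0.1, the smallest possible), and the marks did not overlap. Only 1070 of these regions had enough counts for a test. At these low levels a region could pass the count filter through H3K27ac alone, so the filter may in part set the direction of the calls among them, which are given as a description. Of the 1070, 180 (16.8%) had more H3K27ac and none more H3K4me1 (edgeR, adjusted p under 0.05), beside 9.47% and 10.9% of all tested regions. At an unadjusted p under 0.05 (edgeR), 11 had more H3K4me1. Without the filter 419 of 26068 had more H3K27ac and 3 more H3K4me1, beside 8582 and 9933 of 144917 over all regions. The share with more H3K27ac was thus below that of all regions without the filter, and above it in the main fit. With the strict filter the counts were 64 and 2 of 156, beside 6778 and 6204 of 29995. With halved counts they were 134 and 2 of 349, beside 7619 and 8944 of 49783. DESeq2 called 373 with more H3K27ac and none with more H3K4me1, and limma-voom 123 and 1. With edgeR, 45 had more H3K27ac without the first H3K4me1 library, 117 without the second and 116 without the third, while 278 had more H3K27ac and 7 more H3K4me1 without the second H3K27ac library. TMM scaling gave 286 with more H3K27ac, and the replicate block 279, with 5 that had more H3K4me1. Their median log2 ratio was 1.21 at medians of 5.93 CPM of H3K27ac and 2.65 CPM of H3K4me1 over a median width of 4546 bp, the lowest H3K4me1 of the 3 classes.

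Chromosomes differed in the ratio and in their share of promoter-like regions. Chromosome 19 had the highest median log2 ratio, 0.34, with 66.5% of its 2424 tested regions promoter-like, 21.2% with more H3K27ac and 5.73% with more H3K4me1. Outside promoter-like regions its median was -0.16, also the highest. Chromosome 18 had the lowest median, -0.66, with 23.1% of regions promoter-like, 6.22% with more H3K27ac and 12.4% with more H3K4me1. Outside promoter-like regions the lowest medians were those of chromosomes 11 and 18, both at -0.81.

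The same ratio was measured again in the 6 libraries of knockdown cells. Over the regions tested in control cells, 10399 (13.4%) had more H3K27ac and 20151 (26%) more H3K4me1 in knockdown cells (edgeR, adjusted p under 0.05), with a median log2 ratio of -0.63. The count of 20151 was 9645 with TMM scaling, and it was 12844, 12469 and 12303 without the first, the second and the third H3K4me1 knockdown library. Of the 7347 regions with more H3K27ac in control cells, 7287 (99.2%) had the same sign in knockdown cells, 6339 were called again and none was called the other way, nor did any pass the other way at an unadjusted p under 0.05 (edgeR). Of the 8490 with more H3K4me1, 8429 (99.3%) had the same sign and 6538 were called again. The background is high, since 79.6% of the 61778 regions called in neither direction also kept their sign, and the sign is taken about 0, which the scaling sets. Taken about each condition's own median, 7335 of the 7347, 7927 of the 8490 and 45807 of the 61778 lay on the same side. Of the 8490, none was called with more H3K27ac in knockdown cells, while 4 passed that way at an unadjusted p under 0.05. Median log2 ratios of the first set were 1.79 in knockdown and 2.06 in control cells, and of the second -1.72 in knockdown and -2.03 in control cells. Both sets were chosen on the control values, so no difference between these medians is read. Promoter-like regions held 53.7 ± 0.853% of H3K27ac counts and 36.4 ± 0.257% of H3K4me1 counts in knockdown cells (SD, n = 3 each). The level of the targeted gene was not checked in any library, since no annotation of this build was used.

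A test of the difference itself called 1 of 94589 regions (0.00106%) in edgeR's fit of mark, condition and their interaction over 12 libraries, while 5598 had an unadjusted p under 0.05. It was chr4:151499859-151506019, a promoter-like region of 6161 bp. In knockdown cells H3K27ac was 12.7, 8.12 and 9.23 CPM, against 55.9, 55.2 and 52.9 CPM of H3K4me1, a log2 ratio of -2.44. In control cells H3K27ac was 81.9, 52.2 and 26.7 CPM, against 50.3, 38.1 and 47.0 CPM of H3K4me1, a log2 ratio of 0.25. Acetylation was lower in every knockdown library than in any control library there, the control libraries were far apart, and H3K4me1 was 52.9 CPM or more in knockdown libraries and 50.3 CPM or less in control libraries. The log2 difference, knockdown minus control, was -2.69 (adjusted p = 0.0384, edgeR). The call was lost with TMM scaling (adjusted p = 0.0702, edgeR), with a stricter count filter (adjusted p = 0.0807, edgeR) and without any single library other than the second or the third H3K27ac control library. Adjusted p-values over all alternatives lay between 4.88e-05 and 0.419, with log2 differences of -3.01 to -2.25. Without the third H3K27ac control library 29 regions were called, and without the second 3. With the replicate block 7 were called.

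By the naming rule, 9 further regions with the smallest p in this fit are given although they did not pass. The nearest were chr6:127437365-127444343, with a log2 difference of 2.20, and chr15:53075283-53083838, with -2.11 (adjusted p = 0.119 for both, edgeR). In the chromosome 6 region the mean H3K27ac was 75.1 ± 10.6 CPM in knockdown and 14.2 ± 7.40 CPM in control cells, and H3K4me1 was 34.1 ± 1.18 CPM in knockdown and 29.8 ± 2.32 CPM in control cells (SD, n = 3 each). In the chromosome 15 region H3K27ac was 19.1 ± 3.15 CPM in knockdown and 55.0 ± 22.7 CPM in control cells, and H3K4me1 was 47.7 ± 2.71 CPM in knockdown and 31.9 ± 2.28 CPM in control cells. At chr8:23559077-23569485 H3K27ac was 192 ± 15.7 CPM in knockdown and 72.8 ± 35 CPM in control cells, for a log2 difference of 1.69 (adjusted p = 0.352, edgeR). At chr17:59470752-59480012 it was 134 ± 15.1 CPM in knockdown and 57.0 ± 9.83 CPM in control cells, for a difference of 1.48 (adjusted p = 0.280, edgeR). The other 5 had adjusted p-values of 0.307 to 0.509.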

How the data were processed

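CUT&Tag libraries of H3K27ac and H3K4me1 from control cells (3 each) were compared, with the knockdown libraries of the same marks (3 each) as a repeat and the control H3K4me3 and H3K9me3 libraries for chromatin classes. The deposited files hold raw read counts per region, not normalized by the authors, over 1 shared list of regions. The submitters' processing notes list the build hg19 and, with no role or order, deepTools 3.5.4, bedtools 2.30.0 and Bowtie2 2.4.5. The making of the regions and the filtering of reads are not described in these sources. Even counts formed 51.9% to 62.5% of the counts above 0 in the 6 control libraries compared, an excess that counting both mates of a pair would give, so intervals cover counting error only and may be too narrow.

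Counts were tested with edgeR 4.0.16 (R 4.3.3): filterByExpr, library totals as library sizes, robust quasi-likelihood fits with the mark as the only term, and Benjamini-Hochberg adjustment over all tested regions, with calls at an adjusted p under 0.05. The pairing of control libraries described below was not part of these fits, since no label states it, and enters the calls only in the replicate block. The SE of a log2 ratio was derived from it and its F statistic. Ratios are H3K27ac over H3K4me1, and positions count from 1. A fold against a group without counts uses a floor of 3 counts over the group. Shares of counts were compared by an exact permutation test. Promoter-like regions are the top 20% of regions by mean control H3K4me3 CPM per kb, and H3K9me3-marked regions the top 20% by H3K9me3 that are not promoter-like. Distances were computed with GenomicRanges 1.54.1.

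Named regions are, in each direction, up to 12 with the largest ratio, 6 with the smallest p and 6 with the largest ratio outside promoter-like regions, from called regions without overlap of the 3 libraries of each mark and with at least 10 CPM in the higher mark. Added to these are 6 regions with the most counts within 0.5 (log2) of the median, and 5 in each direction with the smallest p for the difference between conditions. Regions at most 10 kb from one already named were merged with it, and chromosome Y was left out. The libraries, classes, lists and rules were chosen with earlier results of these data known.

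Same-numbered libraries of the 2 marks deviated together in control cells, with correlations of 0.18, 0.37 and 0.28 across regions, all over 0.1. Each region's mean over the 3 libraries of a mark was first subtracted. The negative values of the other pairs, all but 1, follow in part from that step and are not counted as support. Levels without that step had Spearman correlations of 0.47, 0.53 and 0.46 for same-numbered libraries and 0.35 to 0.45 for the other pairs. The numbers were taken to pair the control libraries. The pairing comes from the data and the shared numbers in the titles, not from a label that names a batch. In knockdown cells the correlations were 0.027, 0.032 and 0.024, and the numbers were not taken as pairs. No 2 libraries of a mark agreed within sampling noise (chi-square per degree of freedom 4.35 to 8.38). Alternatives were TMM and RLE scaling, limma-voom (limma 3.58.1), DESeq2 1.42.0, a strict filter at 30 reads of the smallest library, no filter, halved counts, leaving out the 100 highest regions, a replicate block, a log2 ratio of at least 1, other class rules and leaving out each library. Gene lists and cell type markers need an hg19 annotation and were not run.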

Additional observations from a re-analysis of the deposited data

Results flagged for a closer look

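The H3K27ac over H3K4me1 ratio differed between knockdown and control cells at chr4:151499859-151506019 by the test of the interaction between mark and condition, with a log2 difference of -2.69 (adjusted p = 0.0384, edgeR, n = 3 libraries per mark and condition). The 3 knockdown libraries of H3K27ac averaged 10.002 ± 2.36 CPM and the 3 control libraries 53.6 ± 27.6 CPM (SD). The H3K4me1 libraries averaged 54.7 ± 1.58 CPM in knockdown and 45.1 ± 6.30 CPM in control cells. The 3 control libraries of H3K27ac, at 81.9, 52.2 and 26.7 CPM, were the most spread of the 4 groups, and the call was lost without the first of them (adjusted p = 0.419, edgeR).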

How the results depend on the processing

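Lower calls in control cells, 8490 with library totals, numbered 4243 with TMM scaling, 4299 with RLE size factors and 13686 with the replicate block, which also gave 8831 higher calls; with single libraries left out, 2266 to 11909 were lower and 4506 to 8209 higher, beside 7347. In knockdown cells 20151 lower calls became 9645 with TMM scaling and 10258 with the strict filter, and 12303 to 20800 with single libraries left out, while higher calls stayed within 1.5 times of 10399 in every alternative run (8551 to 10140 with single libraries left out; 18245 lower and 9713 higher with the replicate block). The count of regions whose ratio differed between conditions, 1, was 0 with TMM scaling (5389 at an unadjusted p under 0.05) and with the strict filter (2674), 7 with the replicate block and 0 to 29 with single libraries left out. The median log2 ratio of promoter-like regions, 0.33, was 1.09 with a class of the top 10%, 0.16 with a class by CPM not per kb and 0.65 with TMM scaling, and 0.25 to 0.39 with single libraries left out. Differences of shares kept their sign in all alternatives run, at 15.2 to 18.0 percentage points for promoter-like and 1.58 to 2.36 for H3K9me3-marked regions with single libraries left out. Among control ratios of named regions, 629 values kept direction and side of the threshold, 19 no longer passed, 4 newly passed and 3 changed sign: chr1:27880612-27900140, at -0.24, had 0.087 with TMM scaling, 0.080 with RLE size factors and 0.080 with DESeq2. For the differences between conditions at named regions the counts were 124 unchanged, 12 no longer passing and 12 newly passing. The cause of these changes was not tested. Low levels of the lesser mark were more common at the H3K4me1 end: 16.2% of lower calls had under 1 CPM of H3K27ac, and 4.79% of higher calls under 1 CPM of H3K4me1. The part of depth in this was not tested.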

Other observations

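Further runs of regions outside the promoter-like class, chosen after their values were seen, are given for both directions. On chr11:63853317-63901177, where 8 of 9 tested regions had more H3K4me1, the summed H3K27ac was 37.6, 41.1 and 21.8 CPM, against 181, 149 and 135 CPM of H3K4me1. On chr1:54754485-54799232, where 8 of 9 tested regions had more H3K4me1, H3K27ac was 104, 155 and 105 CPM, against 362, 365 and 364 CPM of H3K4me1. In the opposite direction, all 3 tested regions of chr10:104968554-104993233 had more H3K27ac, with a sum of 133, 95.6 and 121 CPM of H3K27ac, against 28.5, 31.3 and 38.3 CPM of H3K4me1. These values carry no test of their own, since the regions were called in the same comparison.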
